A study of Mus musculus with 8 samples.

Results

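The genes described here move zinc and copper across membranes or hold these metals inside the cell, and they were measured in small intestines taken from mice before birth, at 18.5 dpc (days post coitum). They were chosen by name, as every probe set whose single gene symbol belongs to the Slc39a family, the Slc30a family, the metallothioneins Mt1 to Mt4 with their regulator Mtf1, or the copper genes Slc31a1, Slc31a2, Atp7a, Atp7b, Atox1 and Ccs. This gave 63 of the 45101 probe sets on the Affymetrix MOE430 2.0 array, for 35 genes. The rule uses names and no signal values, but the set was chosen with earlier results of these data known. A share above that of all genes is therefore no test of the set. Of these, 52 probe sets for 31 genes were bright enough for the test across all genes, and Slc39a2, Slc39a12, Slc30a8 and Mt3 were not.

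The 4 knockout samples lacked Plagl2, a transcription factor of the PLAG zinc finger family, and the 4 wild-type samples carried it. Each sample was 1 small intestine RNA on 1 array, untreated as far as the labels state, and the sources used here give no allele, strain background, litter or sex. The extraction note of all 8 samples speaks of wild-type intestine, whereas 4 samples are knockouts by their titles, their source names and the series' design. The p-values therefore measure the spread between these samples.

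Zinc is absorbed by the enterocyte through ZIP proteins, encoded by the Slc39a family, which bring zinc into the cytosol from outside the cell or from internal compartments. ZnT proteins, encoded by the Slc30a family, move zinc the opposite way, out of the cell or into vesicles and the Golgi. Metallothioneins are small cysteine-rich proteins that bind zinc, copper and cadmium, and their genes are switched on through metal response elements when zinc activates the transcription factor MTF1. Copper enters through CTR1 (Slc31a1), is handed to its targets by chaperones, and leaves the enterocyte through the ATPase Atp7a.

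Plagl2 probe set 1417517_at gave signals of 3, 6, 5 and 11 in knockout replicates 1 to 4, against 824, 817, 697 and 796 in wild-type replicates 1 to 4. All 4 Plagl2 probe sets had every knockout array below every wild-type array. Median signals were 36 to 42 per array. Wild-type replicate 3 stood apart from the other wild-type arrays: on the axis with the largest share of the variance (44.3%) the knockouts lay at 35.7 to 40.7, wild-type replicate 3 at -21.9 and the other wild-types at -44.7 to -43.3. Xist, transcribed from the inactive X chromosome of females, reached 1828 in knockout replicate 2 and 1410 in knockout replicate 3, against at most 47 on every other array. The 3'/5' ratio of control transcripts, a measure of RNA integrity, was on average 0.02 to 0.10 in knockout and -0.06 to 0.01 in wild-type arrays on the log2 scale. Every knockout array lay above every wild-type array, so the fits below that adjust for this ratio cannot cleanly separate it from genotype.

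Fold changes below are knockout over wild-type on the scale log2(signal + 16), with standard errors (SE) from limma and Benjamini-Hochberg adjusted p-values over all 27022 probe sets tested. A probe set was called where the adjusted p was under 0.05, and a gene is represented by its brightest tested probe set. Of the 31 genes, 3 were called higher and 6 lower in the knockout (29.0%), against 15.1% of all 12838 genes tested (6.60% higher and 8.50% lower). The median log2 fold change was -0.13 for the 31 genes and 0.03 for all genes. In 9 of the 31 the knockout and wild-type arrays did not overlap, against 19.9% of all genes. Of the 9 called genes, 5 differed by at least 1 on the log2 scale. Mt1 and Mt2 were higher by that much, as were 1.93% of all genes, and Slc39a8, Slc30a2 and Mt4 lower, as were 2.70%. Without wild-type replicate 3, 3 of the 31 genes were higher and 7 lower, Slc31a1 being added, against 19.6% of all genes called (9.30% higher and 10.3% lower). Over probe sets, 10 of 52 were called (3 higher and 7 lower), against 12.0% of all probe sets (5.28% higher and 6.70% lower). Groups did not overlap on 13 of the 52, against 17.0% of all. In bulk tissue, fewer cells of a type and less RNA per cell cannot be told apart.

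**Figure D1:**
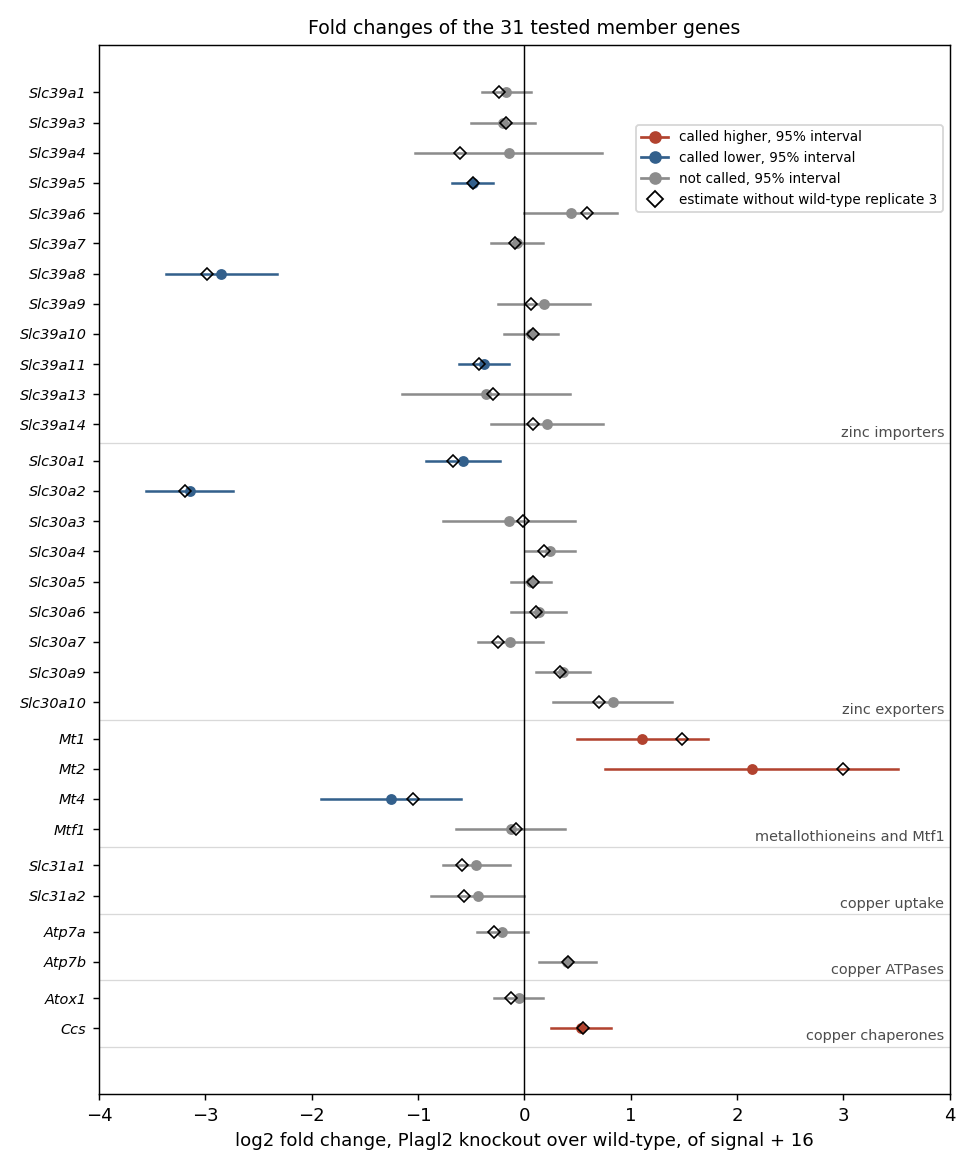
Log2 fold changes (knockout over wild-type, of signal + 16, x axis) of the 31 tested genes with 95% intervals, grouped by role, with the estimate without wild-type replicate 3 as open diamonds. Slc39a8 and Slc30a2 lie near -3, and the diamonds of Mt1 and Mt2 lie to the right of their full estimates.

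Of 12 tested Slc39a genes, 3 were called lower in the knockout (Slc39a8, Slc39a5 and Slc39a11) and 0 higher by limma. At an unadjusted p under 0.05, 1 of the 12 was higher and 3 were lower. The called share was 25.0%, against 15.1% of all genes tested. Slc39a8 encodes ZIP8, an importer of zinc and manganese that also carries cadmium. Its probe set 1416832_at gave signals of 87, 227, 180 and 200 in knockout replicates 1 to 4, against 1336, 1561, 967 and 1350 in wild-type replicates 1 to 4. The highest knockout array was therefore far below the lowest wild-type array. Slc39a8 averaged 173.5 ± 60.8 in knockout and 1304 ± 247 in wild-type intestine (SD, n = 4 each), a log2 fold change of -2.85 ± 0.24 (SE, adjusted p = 1.24e-05). A second probe set of Slc39a8, 1448482_at, gave 43 to 67 in knockout and 347 to 536 in wild-type arrays (log2 fold change -2.76 ± 0.16 SE, adjusted p = 7.88e-07). Slc39a8 was called in all 19 alternative fits, with log2 fold changes of -3.15 to -2.55.

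ZIP8 is also made by macrophages and other leukocytes. Of 6 leukocyte markers, Csf1r was called lower (707 in knockout and 3752 in wild-type intestine on average) and the other 5 were not, Ptprc having 123 to 221 in knockout and 186 to 242 in wild-type arrays. All 6 had a negative log2 fold change (median -0.38), and 2, Csf1r and Ptprc, were lower at an unadjusted p under 0.05 by limma. The 6 leukocyte signals summed to 1102 to 1641 in knockout and 3614 to 4988 in wild-type arrays, and no marker was at 0. Most of that gap lay in Csf1r. The other 5 summed to 549, 532, 439 and 783 in knockout replicates 1 to 4, against 691, 663, 740 and 682 in wild-type replicates 1 to 4. Knockout replicates 1 to 3 were thus below every wild-type array, and the groups overlapped through knockout replicate 4. The 11 markers of intestinal epithelium summed to 43335 to 52847 in knockout and 40837 to 44916 in wild-type arrays. Of these, the keratins Krt20 (log2 fold change 2.55), Krt19 (0.70) and Krt8 (0.52) were called higher, Krt18 (-1.02) and the transcription factor Cdx1 (-1.01) lower, and 6, among them Epcam and Cdh1, were not called. The part of leukocyte number in the Slc39a8 difference was not tested.

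Slc39a5 encodes ZIP5, which lies on the basolateral side of the enterocyte and takes up zinc from the blood. Its signals were 596, 594, 699 and 596 in knockout replicates 1 to 4, against 878, 886, 874 and 858 in wild-type replicates 1 to 4. The groups did not overlap, and the wild-type values lay within a narrow band. Slc39a5 averaged 621 ± 51.8 in knockout and 874 ± 11.8 in wild-type intestine (SD, n = 4 each), with a log2 fold change of -0.49 ± 0.09 (SE, adjusted p = 0.00354). Adjusted for the 3'/5' ratio its log2 fold change was -0.45 and the call ended (adjusted p = 0.106).

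Slc39a11, another ZIP family gene, gave 340, 403, 417 and 342 in knockout replicates 1 to 4, against 514, 475, 452 and 533 in wild-type replicates 1 to 4. All knockout arrays were below all wild-type arrays, by a smaller margin than for Slc39a8. The log2 fold change of Slc39a11 was -0.38 ± 0.11 (SE, adjusted p = 0.039). The call was lost without knockout replicate 1, 2 or 4 or wild-type replicate 1, 2 or 4 (adjusted p = 0.0651 to 0.117), after adjustment for the 3'/5' ratio (0.273) and with no intensity trend (0.0752).

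Slc39a4 encodes ZIP4, the apical zinc importer whose human gene is mutated in the zinc deficiency acrodermatitis enteropathica. Its signals were 988, 947, 1658 and 586 in knockout replicates 1 to 4, against 1519, 1312, 410 and 1669 in wild-type replicates 1 to 4. The groups overlapped, with the lowest value of all 8 arrays in wild-type replicate 3 and the highest knockout value in replicate 3. Slc39a4 had a log2 fold change of -0.15 (95% interval -1.02 to 0.73, adjusted p = 0.859), an interval that leaves room for a change of about 1 in the lower direction. Without wild-type replicate 3 it was -0.60 (adjusted p = 0.151).

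The remaining importers were not called. The plasma membrane importers Slc39a1 and Slc39a3 had log2 fold changes of -0.17 (95% interval -0.40 to 0.06) and -0.20 (-0.51 to 0.10). Slc39a7, which releases zinc from the endoplasmic reticulum and Golgi, had -0.07 (-0.32 to 0.17), and the Golgi protein gene Slc39a9 had 0.19 (-0.25 to 0.62). Slc39a6 and Slc39a10, close relatives that import zinc at the cell surface, had 0.44 (0.00 to 0.87, adjusted p = 0.196) and 0.06 (-0.19 to 0.32). Slc39a13, an intracellular ZIP of connective tissue, had -0.36 (-1.15 to 0.43), with 9 in knockout replicate 3 against 53 to 78 in the other knockout arrays and 49 to 76 in wild-type arrays. Slc39a14 encodes ZIP14, which carries zinc, iron and manganese, and had 0.21 (-0.32 to 0.74), its highest signal of 662 being in knockout replicate 3. Slc39a2 gave 14 to 26 in knockout and 5 to 35 in wild-type arrays. The brighter probe set of Slc39a12, a brain ZIP, gave 3 to 31 in knockout and 2 to 17 in wild-type arrays, so both genes were near the floor in each group.

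**Figure D2:**
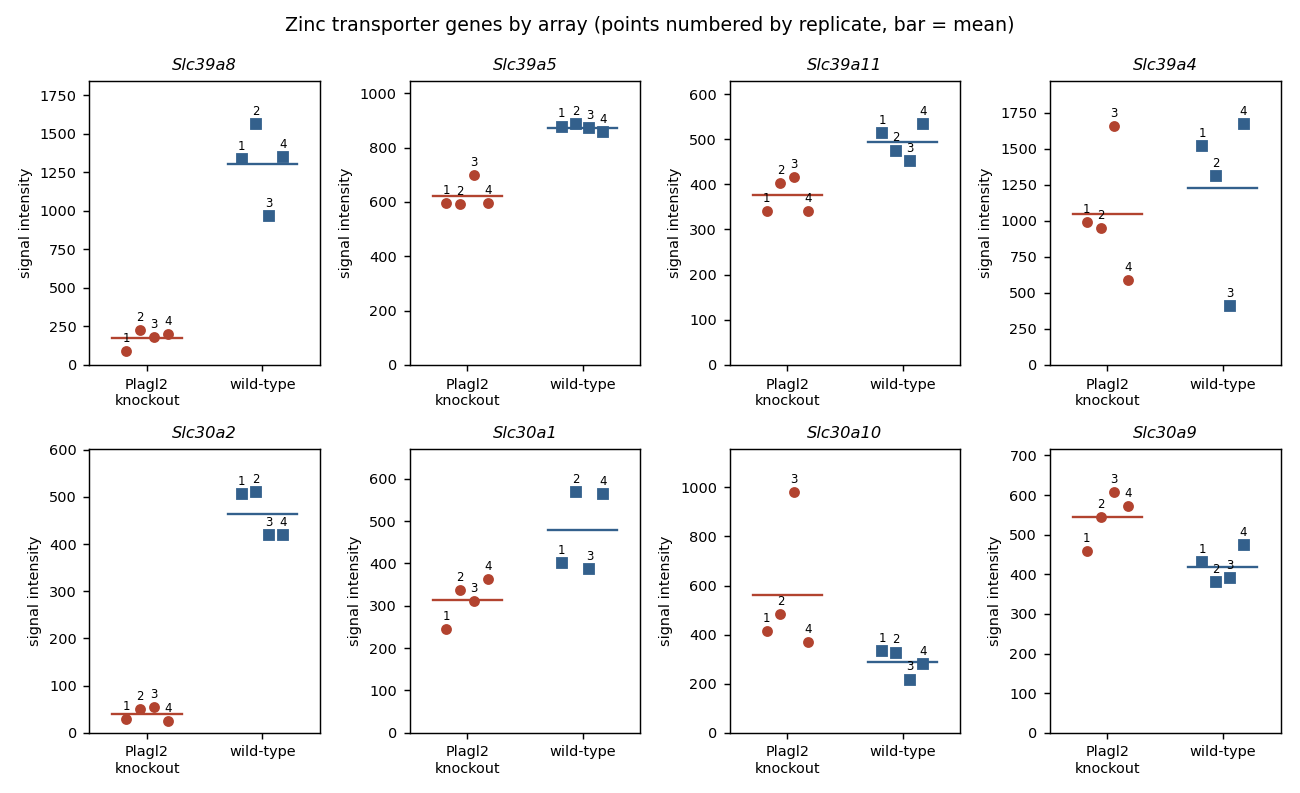
Signal intensity (y axis, linear, from 0) of 8 zinc transporter genes in the 4 knockout and 4 wild-type arrays, with points numbered by replicate and bars at the group means. Slc39a8 and Slc30a2 show no overlap and a wide gap, and wild-type replicate 3 is the lowest array for Slc39a4.

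Of 9 tested Slc30a genes, 2 were called lower (Slc30a2 and Slc30a1) and 0 higher by limma. At an unadjusted p under 0.05, 3 of the 9 were higher and 2 were lower. The called share was 22.2%, against 15.1% of all genes tested. Slc30a2 encodes ZnT2, which loads zinc into vesicles of secretory cells such as those of the mammary gland, the pancreas and the Paneth cells of the adult intestine. Its signals were 29, 51, 54 and 24 in knockout replicates 1 to 4, against 506, 510, 420 and 419 in wild-type replicates 1 to 4. Every wild-type array was far above every knockout array. Slc30a2 averaged 39.5 ± 15.2 in knockout and 464 ± 51.1 in wild-type intestine (SD, n = 4 each), and its log2 fold change of -3.15 ± 0.19 (SE, adjusted p = 1.06e-06) was the lowest of the 31 genes. The knockout arrays were dim, so the size depended on the added constant, with -3.60 for an offset of 1 and -2.36 for an offset of 64, and the call held in all 19 alternatives.

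Markers of secretory cells were set beside it. Of 6 exocrine pancreas markers 0 were called in either direction (0 at an unadjusted p under 0.05 as well). They summed to 4334 in knockout replicate 1, where Slc30a2 had 29, and to 464 to 635 in the other knockouts, against 311 to 2412 in wild-types. Of 3 Paneth cell markers, Lyz1 was called higher and the other 2 were not called by limma. All 3 had a positive log2 fold change, and 2 were higher at an unadjusted p under 0.05. The 3 summed to 477 to 955 in knockout and 262 to 465 in wild-type arrays. Of 4 enteroendocrine markers, Chga (log2 fold change -0.99), Chgb (-1.04) and Sct (-1.11) were called lower, and the groups did not overlap for any of the 3. The part of secretory cell number in the Slc30a2 difference was not tested.

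The promoter of Slc30a2 is shown because this gene had the lowest fold change of the set and its promoter holds 2 matches to the PLAG1 consensus, the binding motif described for the PLAG family. It is the RefSeq window from 250 bases before to 50 after the annotated start, in build GRCm38.p6 (chr4:134343216-134343515, plus strand), with the matches in capitals.
Slc30a2: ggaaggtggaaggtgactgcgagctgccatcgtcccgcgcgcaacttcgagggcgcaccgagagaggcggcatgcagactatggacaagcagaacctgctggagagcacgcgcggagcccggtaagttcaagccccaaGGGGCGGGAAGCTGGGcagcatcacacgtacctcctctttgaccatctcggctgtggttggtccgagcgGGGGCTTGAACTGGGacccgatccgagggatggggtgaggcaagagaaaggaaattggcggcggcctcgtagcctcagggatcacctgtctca
At least 2 matches on either strand were found in 6.86% of all 32851 promoters of this length. Among the members, Slc30a4 (3 matches) and Slc30a7 (2), which were not called, also held at least 2. So did Slc30a1 (4) and Slc39a5 (3, in a single window), which were called lower. Neither promoter window of Slc39a8 held a match. A match is a description of letters and not a bound site.

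Slc30a1 encodes ZnT1, the plasma membrane zinc exporter, whose gene is a known MTF1 target. Its brighter probe set 1436164_at gave 246, 337, 311 and 363 in knockout replicates 1 to 4, against 400, 568, 387 and 563 in wild-type replicates 1 to 4. The groups did not overlap, although only 24 signal units separated the highest knockout from the lowest wild-type array. Slc30a1 had a log2 fold change of -0.58 ± 0.16 (SE, adjusted p = 0.0361), and its second probe set 1422786_at had -0.44 and was not called (adjusted p = 0.0918). The call was lost without knockout replicate 1, 2 or 3 or wild-type replicate 2 or 4 (adjusted p = 0.059 to 0.116), after adjustment for the Xist signal (0.0844) or the 3'/5' ratio (0.361), in the arrays with low Xist signal (0.105), with no filter (0.0519) and with no intensity trend (0.0711).

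Slc30a10, which in humans and mice exports manganese, gave 413, 485, 980 and 368 in knockout replicates 1 to 4, against 333, 327, 217 and 280 in wild-type replicates 1 to 4. Its groups did not overlap on either of its probe sets, yet it was not called, with log2 fold changes of 0.83 ± 0.26 (SE, adjusted p = 0.0579) and 0.66 ± 0.21 (SE, adjusted p = 0.063). Knockout replicate 3 was its highest array, and leaving it out gave Slc30a10 a log2 fold change of 0.53 (adjusted p = 0.0536). Without knockout replicate 4 it was called (0.99, adjusted p = 0.0288), and with the Xist signal as a covariate it was 0.44 (adjusted p = 0.359).

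Slc30a9, linked to zinc export from mitochondria, had a log2 fold change of 0.36 ± 0.12 (SE, adjusted p = 0.0639) and was called without knockout replicate 1 (0.44, adjusted p = 0.0399). Slc30a5 and Slc30a6, whose proteins pair to supply zinc to enzymes of the secretory pathway, had 0.06 (95% interval -0.13 to 0.25) and 0.13 (-0.12 to 0.39), and Slc30a7, which does the same alone, had -0.13 (-0.44 to 0.17). The intervals of these 3 genes exclude changes as large as 0.5 in either direction. Slc30a4, a zinc exporter into vesicles, had 0.24 (0.01 to 0.47, adjusted p = 0.182), and Slc30a3 of synaptic vesicles had -0.14 (-0.76 to 0.47). Slc30a8, which fills insulin granules with zinc, gave 13 to 17 in knockout and 2 to 24 in wild-type arrays and was too dim to test.

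Mt1 and Mt2, the metallothioneins made in most tissues, were called higher in the knockout and Mt4 lower, while Mtf1 was not called. Mt2 gave signals of 3342, 4670, 3821 and 4493 in knockout replicates 1 to 4, against 507, 583, 5519 and 404 in wild-type replicates 1 to 4. Wild-type replicate 3 was above every knockout array, and the other 3 wild-type arrays were far below them. Mt2 averaged 4082 ± 614 in knockout and 1753 ± 2512 in wild-type intestine (SD, n = 4 each), with a log2 fold change of 2.14 ± 0.63 (SE, adjusted p = 0.0473). Without wild-type replicate 3 the wild-type mean was 498 ± 89.8 (SD, n = 3) and the log2 fold change of Mt2 was 3.00 ± 0.14 (SE, adjusted p = 3.28e-07).

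Mt1, on probe set 1422557_s_at, gave 6797, 7639, 7631 and 7601 in knockout replicates 1 to 4, against 2599, 3074, 7427 and 2310 in wild-type replicates 1 to 4. Wild-type replicate 3 lay within the range of the knockouts, and the other 3 wild-type arrays were below them all. Mt1 averaged 7417 ± 414 in knockout and 3853 ± 2404 in wild-type intestine (SD, n = 4 each), with a log2 fold change of 1.11 ± 0.28 (SE, adjusted p = 0.0232), and without wild-type replicate 3 it was 1.48 ± 0.10 (SE, adjusted p = 3.28e-06). The dimmer probe set of Mt1, 1451612_at, gave 70 to 90 in knockout arrays, against 32, 42, 67 and 15 in wild-type replicates 1 to 4 (log2 fold change 0.86, adjusted p = 0.0508). The suffix _s_at marks a probe set that can match more than 1 transcript, and Mt1 and Mt2 are similar in sequence.

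**Figure D3:**
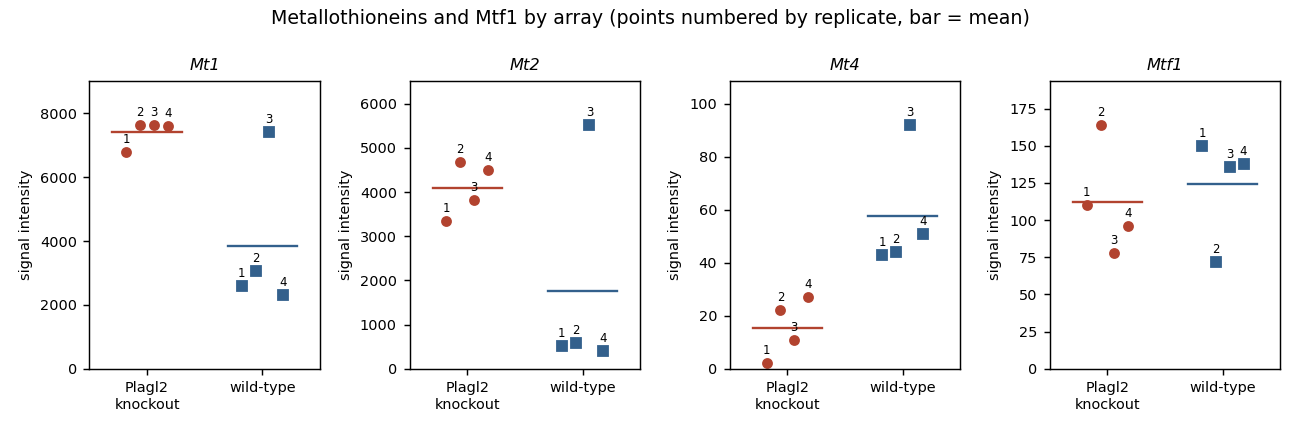
Signal intensity (y axis, linear, from 0) of Mt1, Mt2, Mt4 and Mtf1 in the 4 knockout and 4 wild-type arrays, with points numbered by replicate and bars at the group means. For Mt1 and Mt2, wild-type replicate 3 stands with the knockout arrays and the other wild-types reach at most 3074 and 583.

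Beyond wild-type replicate 3, the calls of both genes depended on the fit. Mt2 lost its call without any 1 of the 7 other arrays (adjusted p = 0.0732 to 0.138) and under a range of settings that left its log2 fold change at 2.00 to 2.16, and Mt1 lost it without knockout replicate 2 or wild-type replicate 1, 2 or 4 (adjusted p = 0.063 to 0.0791). With the Xist signal as a covariate the log2 fold changes were 1.04 for Mt1 (adjusted p = 0.113) and 2.00 for Mt2 (0.167). Adjusted for the 3'/5' ratio they were 1.74 (adjusted p = 0.02) and 3.63 (0.0249), over 1.5 times the values without it. The ratio differed between the groups without overlap and was lowest in wild-type replicate 3, so these adjusted values cannot separate it from genotype.

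Cell type markers were set beside these values. Summed signals of 8 mesenchyme markers were 17378, 15545, 12036 and 19782 in knockout replicates 1 to 4, against 13335, 12124, 16047 and 10990 in wild-type replicates 1 to 4. Wild-type replicate 3 was the highest wild-type array here too, as it was for 6 smooth muscle markers (13323, against 7681 to 10611 in the other wild-types). It was also the highest wild-type for enteric neurons and glia, dividing cells and erythroid cells. It was the lowest for intestinal epithelium, endothelium, leukocytes with Csf1r, enteroendocrine cells, Paneth cells, pancreatic islets, liver and gastric epithelium, and neither for exocrine pancreas. Of the mesenchyme markers 1 was called higher in the knockout, and of the smooth muscle markers 0 were called by limma (3 higher at an unadjusted p under 0.05). Without wild-type replicate 3, 3 of the 8 mesenchyme markers and 3 of the 6 smooth muscle markers were called higher, with median log2 fold changes of 0.37 and 0.62. The smooth muscle sums of the knockout arrays were 13438, 13275, 9844 and 16106 in replicates 1 to 4. The part of tissue make-up in the metallothionein difference was not tested. Of the 31 genes, 23 had wild-type replicate 3 outside the range of the other wild-types (74.2%), against 64.2% of all genes tested.

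Mt4, a metallothionein of stratified epithelium, gave 2, 22, 11 and 27 in knockout replicates 1 to 4, against 43, 44, 92 and 51 in wild-type replicates 1 to 4. The groups did not overlap but both were dim, and the knockout mean of 15.5 lay under the limit of 23.0 that the gene passed through its wild-type arrays. Its log2 fold change of -1.25 ± 0.30 (SE, adjusted p = 0.018) ranged from -2.17 with an offset of 1 to -0.60 with an offset of 64. Adjusted for the 3'/5' ratio it was -0.40 (adjusted p = 0.56), and in the arrays with low Xist signal Mt4 was not called (adjusted p = 0.0602). Mt3, the metallothionein of neurons, gave 8 to 35 in knockout and 3 to 16 in wild-type arrays and was too dim to test.

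Mtf1 encodes the zinc-sensing activator of the metallothionein genes. Its brightest probe set 1418333_at gave 110, 164, 78 and 96 in knockout replicates 1 to 4, against 150, 72, 136 and 138 in wild-type replicates 1 to 4. The groups overlapped throughout, and the log2 fold change of Mtf1 was -0.13 (95% interval -0.64 to 0.38, adjusted p = 0.78). The other tested Mtf1 probe sets had -0.04 and 0.42 and were not called.

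In the RefSeq gene order Mt4, Mt3, Mt2 and Mt1 follow each other on chromosome 8, with the lncRNA gene Gm39227 between Mt3 and Mt2. The promoters of Mt1 and Mt2 are shown with that of Slc30a1, since all 3 genes are known to answer to zinc through metal response elements, yet Mt1 and Mt2 were higher and Slc30a1 lower in the knockout. Capitals mark the core of the element, TGCACNC or TGCGCNC, searched on both strands. The windows run from 250 bases before to 50 after the start in GRCm38.p6, at chr8:94178839-94179138, plus strand for Mt1, chr8:94172368-94172667, plus strand for Mt2 and chr1:191906531-191906830, plus strand for Slc30a1.
Mt1: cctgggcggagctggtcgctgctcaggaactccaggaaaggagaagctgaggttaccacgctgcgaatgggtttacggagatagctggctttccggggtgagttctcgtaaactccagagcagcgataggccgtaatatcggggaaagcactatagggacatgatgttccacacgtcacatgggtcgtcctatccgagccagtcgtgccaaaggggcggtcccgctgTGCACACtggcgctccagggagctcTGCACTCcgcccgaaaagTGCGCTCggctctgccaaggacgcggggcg
Mt2: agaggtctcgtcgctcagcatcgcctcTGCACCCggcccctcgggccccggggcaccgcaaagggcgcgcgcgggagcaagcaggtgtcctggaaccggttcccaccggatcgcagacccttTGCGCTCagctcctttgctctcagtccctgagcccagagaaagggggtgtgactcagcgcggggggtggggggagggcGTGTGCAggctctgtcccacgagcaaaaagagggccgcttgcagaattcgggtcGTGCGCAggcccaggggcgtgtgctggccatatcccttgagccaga
Slc30a1: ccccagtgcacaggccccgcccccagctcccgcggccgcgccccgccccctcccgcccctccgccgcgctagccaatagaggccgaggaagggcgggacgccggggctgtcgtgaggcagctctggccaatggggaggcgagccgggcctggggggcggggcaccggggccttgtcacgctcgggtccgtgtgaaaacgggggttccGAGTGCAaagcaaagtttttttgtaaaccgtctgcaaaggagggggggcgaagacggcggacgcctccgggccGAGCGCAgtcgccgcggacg
Mt1 held 3 cores, Mt2 4 and Slc30a1 2. The Slc30a2 promoter printed above also held 2 cores, which are not in capitals there. Of all 32851 promoters, 25.7% held at least 1 core, 7.11% at least 2, 1.97% at least 3 and 0.517% at least 4. Slc30a1 also held 4 matches to the PLAG1 consensus (at least 4 in 0.709% of all promoters), and Mt2 held 1 and Mt1 0. No core overlapped a PLAG1 match in the 4 promoters printed here. A promoter was found for 30 of the 35 genes. Of their 35 promoters, 19 held a core (54.3%) and 12 a PLAG1 match (34.3%, against 22.7% of all). Both motifs are rich in G and C, and the median GC content was 61.3% in these promoters and 52.7% in all.

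Of 6 copper genes, Ccs was called higher and 0 lower by limma (2 higher and 2 lower at an unadjusted p under 0.05). The called share of 16.7% was near the 15.1% of all genes tested. Ccs encodes the chaperone that inserts copper into superoxide dismutase Sod1. It gave 353, 431, 495 and 373 in knockout replicates 1 to 4, against 250, 261, 289 and 317 in wild-type replicates 1 to 4. The groups did not overlap, and the knockouts with Xist signal (replicates 2 and 3) were the highest of the 8 arrays. Ccs averaged 413 ± 63.9 in knockout and 279 ± 30.0 in wild-type intestine (SD, n = 4 each), with a log2 fold change of 0.53 ± 0.13 (SE, adjusted p = 0.0183). With the Xist signal as a covariate it was 0.35 (adjusted p = 0.155), and the call also ended after adjustment for the 3'/5' ratio (0.0544), in the arrays with low Xist signal (0.152) and without knockout replicate 2 or wild-type replicate 1 or 2 (0.0618 to 0.067). Sod1 itself was called higher (4228 in knockout and 3192 in wild-type intestine, log2 fold change 0.40 ± 0.09 SE, adjusted p = 0.0146). Atox1, the chaperone that serves the copper ATPases, gave 1238 to 1578 in knockout and 1288 to 1630 in wild-type arrays and had a log2 fold change of -0.05 (95% interval -0.28 to 0.18). A second bright probe set of Atox1, 1460639_a_at, gave 907 to 1255 in knockout and 1273 to 1435 in wild-type arrays, which did not overlap, and had -0.28 (-0.52 to -0.05) without being called (adjusted p = 0.116).

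Slc31a1, the copper importer CTR1, gave 893, 1003, 1245 and 943 in knockout replicates 1 to 4, against 1441, 1510, 1048 and 1638 in wild-type replicates 1 to 4. The groups overlapped because wild-type replicate 3 was low and knockout replicate 3 high. The log2 fold change of Slc31a1 was -0.45 ± 0.14 (SE, adjusted p = 0.066). It was -0.59 ± 0.12 without wild-type replicate 3 (SE, adjusted p = 0.0061) and -0.55 without knockout replicate 3 (adjusted p = 0.0267), and was called in both fits. Slc31a2, which encodes the related CTR2, had -0.44 ± 0.20 (SE, adjusted p = 0.189).

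Atp7a, which exports copper from the enterocyte and is mutated in Menkes disease, gave 514, 551, 621 and 555 in knockout replicates 1 to 4, against 655, 653, 555 and 747 in wild-type replicates 1 to 4. Its groups overlapped, with a log2 fold change of -0.21 (95% interval -0.45 to 0.03, adjusted p = 0.258). Atp7b, the copper ATPase mutated in Wilson disease, gave 197, 216, 217 and 189 in knockout replicates 1 to 4, against 130, 147, 152 and 176 in wild-type replicates 1 to 4. The groups of Atp7b did not overlap, and its log2 fold change of 0.41 ± 0.12 (SE, adjusted p = 0.0513) was not called. It was called with 60% of dim probe sets left out (adjusted p = 0.0348) and without wild-type replicate 4 (0.0437). The other Atp7b probe sets had -0.01 and 0.34.

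**Figure D4:**
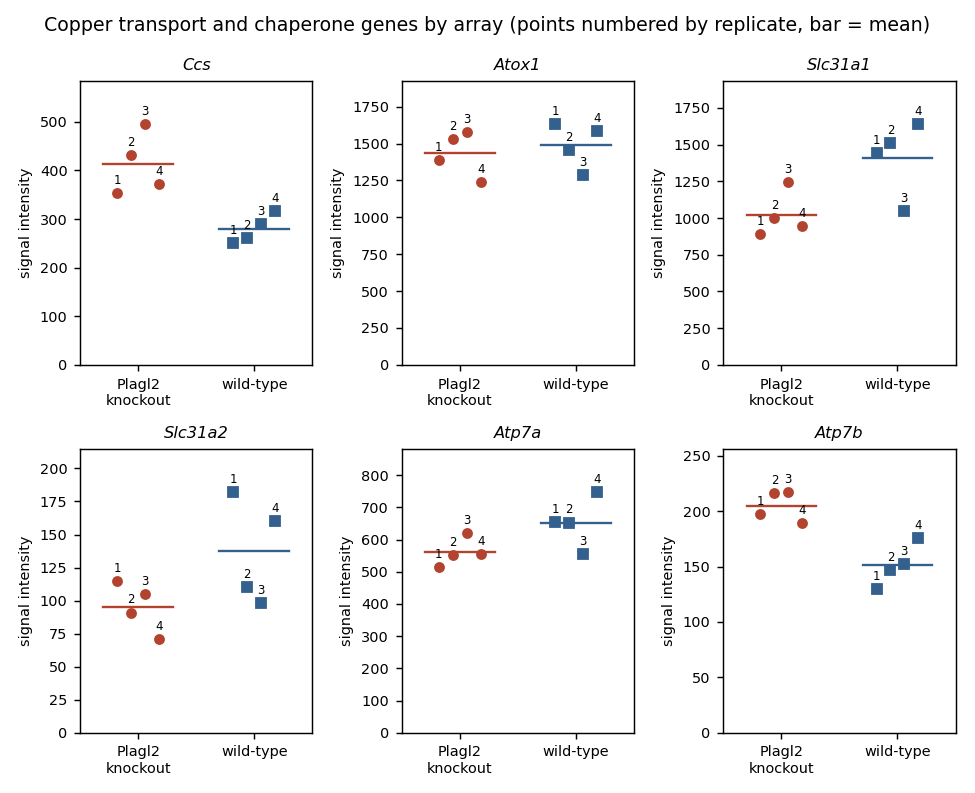
Signal intensity (y axis, linear, from 0) of the 6 copper genes in the 4 knockout and 4 wild-type arrays, with points numbered by replicate and bars at the group means. Ccs and Atp7b show no overlap between the groups, and Slc31a1 overlaps through replicate 3 of each group.

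Where a gene had more than 1 tested probe set (16 genes), all of them had the same sign in 9 and differed in sign in 7, and in none of those 7 was any probe set called. These were Atp7b, Mtf1, Slc30a7, Slc39a3, Slc39a6, Slc39a9 and Slc39a10. The dimmer tested probe set had 0.09 for Slc30a7, 0.13 for Slc39a3, -0.15 for Slc39a6, -0.17 for Slc39a9 and -0.01 for Slc39a10, opposite in sign to the values given above.

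Other genes of zinc and copper handling gave the following counts, beside 6.60% higher and 8.50% lower of all genes. The lists were chosen with earlier results of these data known, so a share above that of all genes is no test of a list. Of 17 genes for zinc enzymes, mostly of the brush border and secretory pathway, 10 were higher and 3 lower (8 and 3 without wild-type replicate 3), with a median log2 fold change of 0.76. The list also held the cytosolic enzymes Adh1, Adh4 and Car2, all of them among the 10 called higher. Adh4, an alcohol dehydrogenase, rose by 5.67 ± 0.20 (SE), the carbonic anhydrase Car9 by 2.17 ± 0.16 and the alkaline phosphatase Akp3 by 4.47 ± 0.39, and the metalloprotease Mep1a fell by 1.67 on the log2 scale. Adh4 and Akp3 averaged 17.8 and 25.8 in wild-type arrays, so the size of these values depends on the added constant. Adh4 and the carbonic anhydrase Car4, both among the 10 called higher, averaged 17.8 and 17.25 in wild-type arrays. Both means lay under the limit of 23.0, which the 2 genes passed through their knockout arrays, so these genes could only come out higher. Of 9 genes reported to answer to MTF1 or metal stress, 2 were higher and 3 lower (median -0.16). The thioredoxin reductase Txnrd1 (1.11 ± 0.12 SE, adjusted p = 6.21e-05) and the quinone reductase Nqo1 (1.21 ± 0.16 SE, adjusted p = 0.00037) rose. The heme oxygenase Hmox1 fell (-1.22 ± 0.17 SE, adjusted p = 0.000432), as did Selenow (-0.43 ± 0.12 SE, adjusted p = 0.0353).

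Of 9 genes for copper delivery to mitochondria and cytosolic copper handling, 1 was higher and 2 lower (median -0.18). Sco2, which delivers copper to cytochrome c oxidase, was higher (1.29 ± 0.30 SE, adjusted p = 0.0157), and the assembly factors Cmc1 (-0.48 ± 0.11 SE, adjusted p = 0.0153) and Cox19 (-0.41 ± 0.10 SE, adjusted p = 0.0235) were lower. Of 5 metalloreductases and copper oxidases only Steap2, a metalloreductase, was called (-1.74 ± 0.16 SE, adjusted p = 2.89e-05). Of 11 copper enzymes only Sod1 was called, and of 6 other divalent metal transport genes only the iron exporter Slc40a1 (-0.68 ± 0.15 SE, adjusted p = 0.00989).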

How the data were processed

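Affymetrix MOE430 2.0 arrays were hybridized with biotinylated cRNA, per the labels' protocols. The 4 knockout and 4 wild-type intestines were told apart by titles, source names and the series' design. The deposited values are signal intensities on a linear scale, 1 for each probe set on each array. Each array's mean, trimmed by 2% at each end, was about 150.05, so the authors' scaling is in the values. The signal algorithm is not given in the sources used here. Symbols came from the platform annotation: 34958 probe sets had 1 symbol, 932 several and 9211 none. All 35 member symbols were the same in RefSeq (GRCm38.p6).

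Signals were transformed as log2(signal + 16). Array medians differed by 0.158 at most, so no normalization was added. The 64 control probe sets and the 40% of the others with the lowest mean (under about 23.0) were left out, leaving 27022. limma 3.58.1 in R 4.3.3 was fitted with an intensity trend and genotype as the only term (two-sided, threshold 0.05), and tested on simulated data. Members under the limit were read from the fit with no filter.

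The members, lists and tests were chosen with earlier results of these data known. Every member is named. Values on every array are given for each called member and for Mt1, Mt2, Mtf1, Slc39a4, Slc39a5, Slc30a1, Slc30a2, Slc31a1, Atp7a, Atp7b and Ccs, and other genes by smallest p, up to 4 a list. Slc30a10, Slc39a13 and Slc39a14 were given array values after they were seen. Alternatives were filters, offsets, quantile normalization, the replicate block, no trend, Xist or 3'/5' covariates, the 6 arrays with low Xist signal, gene means over probe sets, and each array left out. Deviations of same-numbered arrays from their group means had correlations of -0.27 to -0.01, so the numbers do not pair the samples. The number of arrays limits the precision. Promoter sequences are from RefSeq.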

Additional observations from a re-analysis of the deposited data

Results flagged for a closer look

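Among the 52 tested probe sets, 104 groups of 4 arrays were checked for 1 array far from the other 3, and 8 were marked, where chance marks about 1 group in 20. In wild-type replicate 3, Mt2 had 5519 against 404 to 583 in the other wild-types, Atp7b (1421563_at) had 39 against 70 to 77, and Slc30a7 (1435717_at) had 298 against 407 to 432. In wild-type replicate 2, Mtf1 (1418333_at) had 72 against 136 to 150. Among knockout arrays, Mt1 had 6797 in replicate 1 against 7601 to 7639 in the others, and Slc39a1 had 418 in replicate 2 against 489 to 495. Slc39a5 had 699 in knockout replicate 3 against 594 to 596, and Atp7a (1418774_a_at) had 371 in knockout replicate 4 against 181 to 193. The Mt1 value of wild-type replicate 3 (7427 against 2310 to 3074) was not marked by this measure on the log scale.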

How the results depend on the processing

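Of the 9 called genes, Slc39a8 and Slc30a2 kept the call under all 19 alternatives and 7 lost it under some. Of the 22 not called, 18 stayed so under all that could test them, and Atp7b, Slc30a9, Slc30a10 and Slc31a1 were called under 1 or 2. No called gene changed sign. With 1 array left out, member genes called higher were 0 to 3 and lower 4 to 7, member probe sets higher 0 to 4 and lower 5 to 11, all probe sets higher 880 to 2082 and lower 1302 to 2169, and the members' median -0.14 to 0.013. The lower count of 11 was without wild-type replicate 3, and no member gene was higher without knockout replicate 2 or wild-type replicate 1 or 2 (6, 7 and 6 at an unadjusted p under 0.05). With the Xist covariate all probe sets higher were 778, and in the arrays with low Xist signal 820, with 0 member genes and 0 member probe sets higher in each by limma (4 and 5 genes at an unadjusted p under 0.05). With the 3'/5' covariate all probe sets higher were 466 and lower 916, member probe sets lower 3 and member genes lower 2. With no intensity trend 1 member gene and 1 member probe set were higher. With the replicate block all probe sets higher were 751 and lower 1164, and 1 member gene and 1 member probe set were higher. Ccs (adjusted p = 0.0559), Mt2 (0.0617) and Slc39a11 (0.148) lost the call under this block. The numbers do not pair the samples, and no array correlated best with its own number. With a gene's probe sets averaged the members' median was -0.034. The cause of these shifts was not tested. Mt4 and Slc39a13 were untested with 60% of dim probe sets left out. At 4 arrays a group, differences under 0.5 on the log2 scale were called in Slc39a5 and Slc39a11 alone among the members.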
